A study of Rattus norvegicus with 8 samples.

Results

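Epithelial neoplasia of the rat oesophagus was compared in 4 rats with normal tissue taken beside it, to find what all 4 pairs shared. All 8 of the 8 arrays of the series entered this comparison, paired by the animal code that both tissues of a rat carry in the sample descriptions. The 4 neoplasia arrays came from 2 rats on a riboflavin-deficient diet (R0N+) and 2 rats on a riboflavin-normal diet (RcN+), and the 4 adjacent normal arrays came from the same rats. Every rat had received N-nitrosomethylbenzylamine (NMBA), a nitrosamine carcinogen for the rat oesophagus, by subcutaneous injection, with a dose of 0.35 mg/kg given 3 times weekly over 5 weeks, and was killed at week 25. The adjacent normal tissue was therefore also exposed to NMBA, and no NMBA-free rat was among these samples. Per the labels' protocols, the areas of interest were taken from paraffin blocks of paraformaldehyde-fixed oesophagus, and a whole-transcriptome amplification made for fixed material was used. The labels used here give neither the age of the rats nor how pure the isolated areas were.

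The rat oesophagus is lined by a cornifying stratified squamous epithelium that lies on connective tissue, a thin smooth muscle layer and a coat of striated muscle. NMBA is activated in the epithelium to a DNA-methylating agent, and repeated doses lead to hyperplasia, dysplasia, papilloma and carcinoma. In injured or neoplastic squamous epithelium, keratinocytes can switch on calprotectin, stefins, interleukin-1 family cytokines and chemokines, which recruit myeloid cells.

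Signals are log2 values of probe sets, normalised together by the authors, and a difference of 1 log2 unit is a doubling. Each of 22093 genes is represented by its brightest probe set over the 8 arrays. Values of the rats are given in the order riboflavin-deficient rat 1 and rat 2, then riboflavin-normal rat 1 and rat 2. Signals are compared between arrays for a gene, not between genes. As a bulk measurement, a lower signal from fewer cells of a type and a lower signal from less RNA per cell cannot be told apart. Of the markers checked for the labelled tissue, all 15 measured squamous markers, all 10 striated muscle markers and all 6 smooth muscle markers were above the table's median of 4.98 on every array. Markers of thyroid, mucous gland and respiratory epithelium were not above it on every neoplasia array or every adjacent normal array.

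The arrays were of uneven quality, and the pairs were affected unequally. The separation of positive from negative control probe sets (area under the curve, 0.5 being none) was 0.617 on the neoplasia array and 0.659 on the adjacent normal array of riboflavin-deficient rat 1, 0.60 and 0.598 in riboflavin-deficient rat 2, 0.696 and 0.577 in riboflavin-normal rat 1, and 0.694 and 0.757 in riboflavin-normal rat 2. The SD of the pair differences over all genes was 0.44, 0.31, 0.56 and 0.46 in that order of rats. Riboflavin-normal rat 1 had 904 genes at least 1 log2 unit higher in neoplasia and 380 lower, against 235 and 612 in riboflavin-deficient rat 1, 147 and 156 in riboflavin-deficient rat 2, and 252 and 651 in riboflavin-normal rat 2.

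The pairs did not share a common direction over the transcriptome. Across the 22093 genes, Spearman correlations between pair differences were -0.31 for riboflavin-deficient rat 1 with riboflavin-normal rat 1, -0.21 for both riboflavin-normal rats, -0.03 for both riboflavin-deficient rats and 0.15 for riboflavin-deficient rat 1 with riboflavin-normal rat 2, which describe genes that are not independent replicates. The correlations of riboflavin-deficient rat 2 with the riboflavin-normal rats were -0.02 and -0.01. In a limma fit with a term per animal, 0 of 22093 genes (0.0%) passed a Benjamini-Hochberg adjusted p under 0.05, and 480 (2.17%) had an unadjusted p under 0.05, of which 236 (1.07%) were higher and 244 (1.1%) lower in neoplasia. The lowest limma adjusted p was 1.0, so none of the genes below is a call, and each is described by its values, its mean pair difference and the SE of that fit over 4 pairs. For a single gene, the smallest two-sided p that an exact permutation test of 4 pairs can give is 0.13.

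The difference had the same sign in all 4 pairs for 1744 genes (7.89%). Neoplasia was higher in all 4 pairs for 906 genes (4.1%) and lower in all 4 for 838 (3.79%). Most of these differences were small: a smallest pair difference of at least 0.1 was kept by 191 genes on the higher side and 218 on the lower, at least 0.2 by 52 and 71, at least 0.3 by 21 and 23, and at least 0.5 (1.41-fold) by 5 (0.0226%) and 6 (0.0272%). At 1 log2 unit, S100a8 remained on the higher side and Mir1843b and the predicted gene LOC102552429 on the lower. All 4 neoplasia arrays were above all 4 adjacent normal arrays for 164 genes (0.742%) and below them for 114 (0.516%). Among the genes at least 0.3 higher in every pair the groups did not overlap for 9 of 21, and among those at least 0.3 lower for 7 of 23. Probe sets that measure no gene reached such sizes too: of 1153 negative control probe sets, 16 (1.39%) were at least 0.5 higher and 13 (1.13%) at least 0.5 lower in all 4 pairs. These are another class of probe set, and whether their spread is like that of genes was not tested. Their shares are therefore not a chance rate for genes. Among probe sets with no gene name the shares were 0.0802% and 0.0624%.

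**Figure D1:**
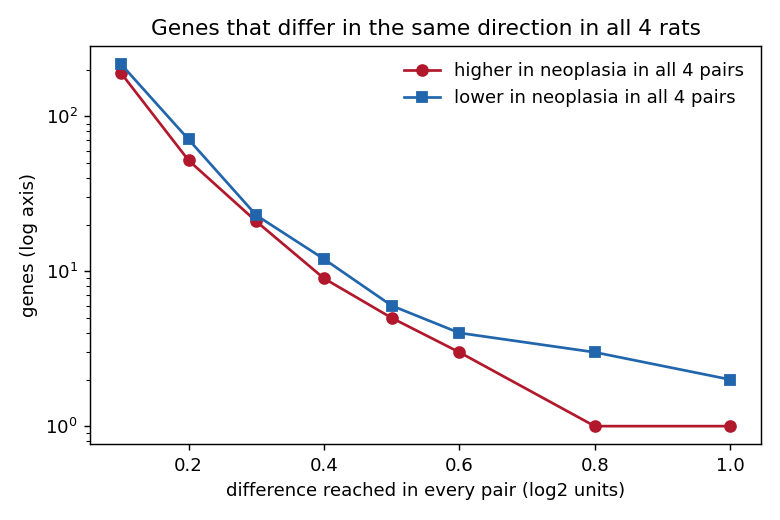
Number of genes (y, log scale) whose neoplasia minus adjacent normal difference was at least the size on the x axis (log2 units) in every one of the 4 pairs, for genes higher and genes lower in neoplasia. Counts dropped to 21 higher and 23 lower genes at 0.3 and to 5 and 6 at 0.5; at 1.5 both counts were 0 and are not drawn.

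On the higher side, S100a8 and S100a9 had the largest differences common to all 4 pairs. S100a8 and S100a9 encode the subunits of calprotectin, a calcium- and zinc-binding protein of neutrophils and of stressed keratinocytes. S100a8 signals were 6.86, 8.53, 8.12 and 7.54 in neoplasia, against 5.83, 5.36, 5.98 and 5.47 in adjacent normal tissue. The lowest neoplasia array lay above the highest adjacent normal array, and the pair differences ran from 1.02 in riboflavin-deficient rat 1 to 3.17 in riboflavin-deficient rat 2. The mean pair difference was 2.10 (SE 0.34, n = 4 pairs, limma unadjusted p = 0.00109, adjusted p = 1.0). S100a9 signals were 6.04, 6.79, 6.37 and 5.95 in neoplasia, against 4.57, 5.35, 5.73 and 4.94 in adjacent normal tissue, again with no overlap. Its mean pair difference was 1.14 (SE 0.17, limma unadjusted p = 0.000747). The difference between diets in this effect, riboflavin-deficient minus riboflavin-normal, was -0.002 for S100a8 and 0.63 for S100a9 (limma unadjusted p = 0.998 and 0.0535).

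Calprotectin is also a neutrophil product. Of 17 neutrophil markers measured, 2 were higher in all 4 pairs and 0 lower, beside 4.1% and 3.79% of all genes. These 2 were S100a8 and S100a9, described above for their shared difference, so the count is no separate support for them. The median over the list was 0.02, beside 0.00 over all genes, with pair medians of 0.13, 0.09, -0.24 and 0.20. Signal was low, with 4 of the 17 at or above the table's median in either group mean. In a panel of 6 neutrophil markers, 3, the granule genes Mpo, Camp and Ngp, were below the table's median on every array. Of the same 6, 1 was above it on every neoplasia array and 0 on every adjacent normal array. The summed signal of the list of 17, which contains both calprotectin genes, was 9.13 to 9.74 on the neoplasia arrays. It was 8.56 to 8.94 on the adjacent normal arrays (log2 of the sum). No sum was made without S100a8 and S100a9, so these ranges do not describe the other members. The part of neutrophils in the calprotectin signal was not tested.

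The promoter of S100a9 is shown because the gene was higher in neoplasia in every rat and carries a TATA box near its start. The sequence is the 250 bases before the RefSeq start on GRCr8, chr2:178490623-178490872, minus strand, written 5′ to 3′ with the motif in capitals.
S100a9: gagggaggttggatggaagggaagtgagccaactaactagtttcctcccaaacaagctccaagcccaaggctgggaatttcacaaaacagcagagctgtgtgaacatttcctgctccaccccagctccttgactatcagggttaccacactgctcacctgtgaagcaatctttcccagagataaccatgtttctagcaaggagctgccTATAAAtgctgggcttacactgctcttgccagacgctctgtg
The letters TATAAA lie at -42 to -37 from the start and occur on either strand in 12.9% of 33469 RefSeq rat promoter windows of that length. Searches on both strands for AP-1 (TGANTCA, 6.34% of the windows), NF-kB (GGGA, any base, then TTTCC, 0.314%), C/EBP (TTGCNNAA, 9.22%), MEF2 (CTA and TAG parted by any 4 bases, 3.41%) and the MyoD E-box (CAGCTG, 12%) found no match in this window.

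Il36g, an interleukin-1 family cytokine released by keratinocytes, was the next epithelial gene. Its signals were 7.26, 7.55, 8.87 and 8.02 in neoplasia, against 6.81, 6.80, 5.82 and 6.96 in adjacent normal tissue. The groups did not overlap, but the size was uneven, with pair differences of 0.45 and 0.76 in the riboflavin-deficient rats and 3.05 and 1.07 in the riboflavin-normal rats (mean 1.33, SE 0.44, limma unadjusted p = 0.0264). The riboflavin-normal rat 1 pair, which carried the largest value, was also the pair with the largest gap in control separation (0.119, against -0.042, 0.002 and -0.063 in the others), and the part of that gap in the result was not tested. The 250 bases before its RefSeq start on GRCr8, chr3:27346437-27346686, plus strand, are given for comparison with S100a9 and held none of the 6 motifs searched, the TATA letters included.
Il36g: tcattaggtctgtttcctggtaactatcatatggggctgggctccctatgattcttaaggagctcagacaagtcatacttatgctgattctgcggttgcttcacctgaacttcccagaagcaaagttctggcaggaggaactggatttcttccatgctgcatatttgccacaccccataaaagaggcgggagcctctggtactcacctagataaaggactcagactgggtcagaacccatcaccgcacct

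The stefins, small inhibitors of cysteine proteases encoded by a rodent gene cluster, were higher in all 4 pairs for 2 of 6 genes (33.3%, beside 4.1% of all genes). Stfa2l3 signals were 7.83, 8.0, 9.45 and 8.15 in neoplasia, against 7.50, 7.10, 6.93 and 6.81 in adjacent normal tissue. The groups did not overlap (mean pair difference 1.27, SE 0.35). Stfa2 signals were 7.55, 7.35, 9.31 and 8.23 in neoplasia and 7.46, 7.07, 6.96 and 6.62 in adjacent normal tissue. The Stfa2 pair differences of the riboflavin-deficient rats, 0.09 and 0.28, were small beside 2.34 and 1.61 in the riboflavin-normal rats, and the difference between diets was -1.79 (limma unadjusted p = 0.0033, adjusted p = 1.0). The other stefins had mixed signs over the pairs. Among them, Stfa3 differed by -2.91 and -0.59 in the riboflavin-deficient rats and by 3.15 and 0.37 in the riboflavin-normal rats. Stefin copies are close in sequence, and signals of the copies may be mixed. Gpr15lg, a secreted ligand of the epithelial barrier that is bound by the receptor GPR15, was higher in every pair too, by 0.26, 1.13, 4.39 and 1.71.

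Of 18 stress keratinocyte genes measured, 4 (22.2%) were higher in all 4 pairs and 0 lower, beside 4.1% and 3.79% of all genes. These were S100a8, S100a9, Stfa2 and Il36g, all described above. The list was chosen with earlier results of these data known, so its share is no separate support for these genes. The median of the list was 0.83, from pair medians of -0.43 and 0.21 in the riboflavin-deficient rats and 2.24 and 0.90 in the riboflavin-normal rats. Riboflavin-deficient rat 1 thus lay below 0 for the list as a whole while these 4 genes were higher in it. Genes of squamous maturation had no shared direction, and of 47 suprabasal differentiation genes, 0 were higher and 0 lower in all 4 pairs, with pair medians of -1.05, 0.13, 2.14 and 0.17. Basal keratinocyte genes had 1 of 22 members higher in all 4 pairs, Wnt4 with a mean of 0.13 (SE 0.10). Krt14, the basal keratin, had signals of 10.68, 8.73, 15.77 and 11.15 in neoplasia and 10.77, 8.42, 8.06 and 11.03 in adjacent normal tissue. Its mean pair difference of 2.01 (SE 1.40) came from riboflavin-normal rat 1, at 7.70, with the other pairs at -0.08, 0.31 and 0.12.

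**Figure D2:**
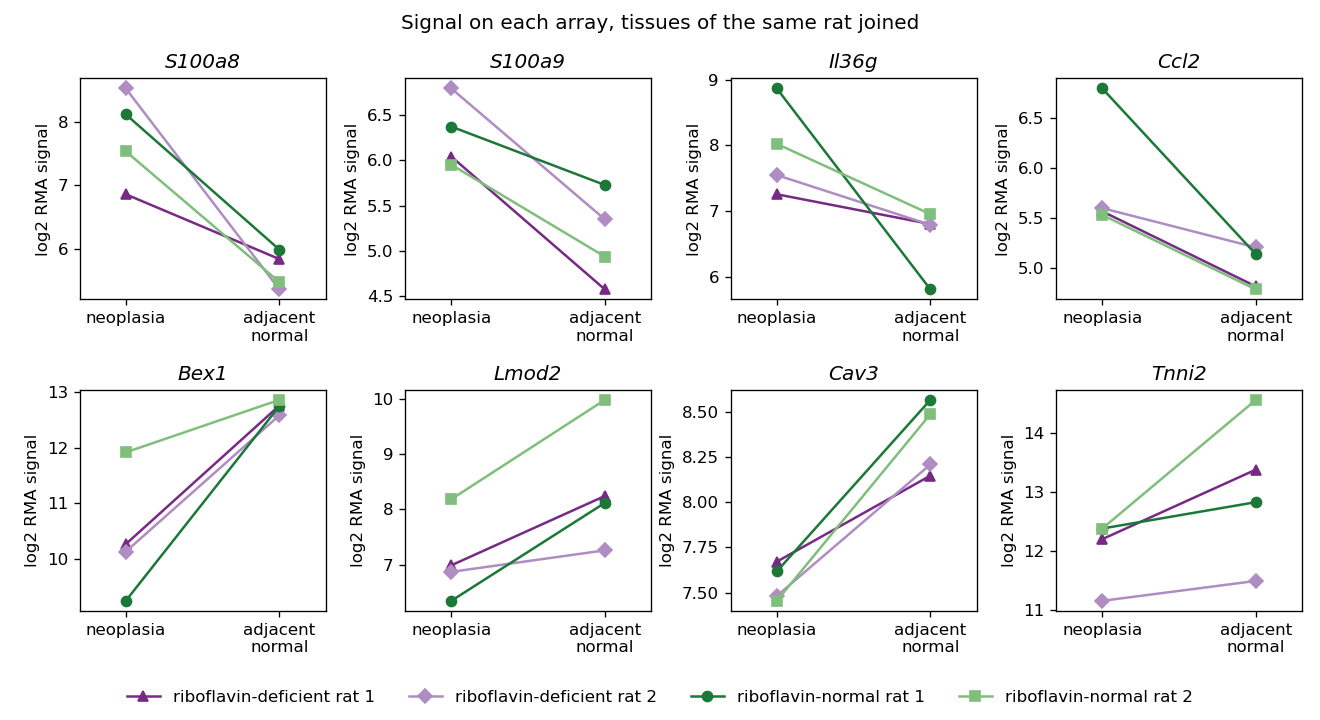
Log2 signal of selected genes on each array, neoplasia to the left of adjacent normal tissue, with a line joining both tissues of a rat and colours by rat. S100a8 neoplasia arrays sit between 6.86 and 8.53, all above the adjacent normal arrays at 5.36 to 5.98, and Bex1 neoplasia arrays between 9.24 and 11.91, all below the adjacent normal arrays.

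Among 40 cytokine and chemokine genes, 6 (15.0%) were higher in all 4 pairs and 1 (2.5%) lower, beside 4.1% and 3.79% of all genes. The median of the list was -0.004. Ccl2, the chemokine that draws monocytes, had signals of 5.57, 5.60, 6.80 and 5.53 in neoplasia, against 4.81, 5.20, 5.13 and 4.78 in adjacent normal tissue. The groups did not overlap, and the mean pair difference was 0.89 (SE 0.22, limma unadjusted p = 0.00793). Ccl20, which attracts cells bearing the receptor CCR6, differed by 0.79, 0.02, 0.58 and 0.20 (mean 0.40, SE 0.16). Cxcl1, a neutrophil chemoattractant, differed by 0.28, 0.21, 0.09 and 0.27 (mean 0.21, SE 0.09). The others were Il36g, described above and also counted among the stress keratinocyte genes, Il10 (mean 0.18) and the granulocyte growth factor gene Csf3 (mean 0.14). Il10 and Csf3 each had a pair at 0.002. Ccl3, a macrophage chemokine, was on the lower side at -0.31 (SE 0.12). Inflammation genes that are often named with these did not share a sign: Il1b differed by -0.22, -0.55, -0.34 and 0.43, Ptgs2, the inducible cyclooxygenase, by 0.22, -0.19, 0.37 and 0.51, and Nos2 by 0.05, -0.16, -0.16 and 0.28. The same direction in all 4 pairs held for 0 of 17 T and NK cell genes. It held for 1 of 18 macrophage genes, beside 7.89% of all genes. That gene was the macrophage scavenger receptor gene Msr1, at -0.17 (SE 0.10). The mast cell tryptase gene Tpsb2 had signals of 5.61, 5.59, 5.65 and 5.48 in neoplasia, against 5.82, 5.84, 5.93 and 5.65 in adjacent normal tissue. Its groups touched without overlapping, and the mean pair difference was -0.23 (SE 0.09).

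Of the 32 lists, 1, the matrix proteases, had a median above 0 in all 4 pairs, at 0.08, 0.09, 0.21 and 0.11, and 0 had a median below 0 in all 4. The pair medians over all genes were 0.001, -0.003, -0.06 and 0.08. With arrays centred on their medians the lowest pair median of the list was -0.04, and with quantile and cyclic loess scaling it was 0.03. Of its 20 genes, 3 were higher in all 4 pairs and 0 lower, beside 4.1% and 3.79% of all genes. These counts were 4 and 1 with quantile or cyclic loess scaling, and 1 and 1 with arrays centred on their medians. Adam17, the sheddase that frees EGF receptor ligands and TNF, differed by 0.35, 0.12, 0.43 and 0.14. Mmp14, a membrane-bound collagenase, had signals of 6.05, 6.06, 6.19 and 6.10 in neoplasia and 5.96, 5.77, 6.04 and 6.0 in adjacent normal tissue, with no overlap and a mean pair difference of 0.16 (SE 0.10). Timp1, the last of the 3, encodes a metalloprotease inhibitor and not a protease, and averaged 0.20 (SE 0.10). By contrast, extracellular matrix genes had pair medians of 0.10, -0.05, 0.24 and -1.14, and Col1a1, the main fibrillar collagen chain, differed by -0.06, -0.04, -0.19 and -1.06.

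Of 51 proliferation genes, 6 (11.8%) were higher in all 4 pairs and 1 (1.96%) lower, beside 4.1% and 3.79% of all genes. Signal was low, with 23 of the 51 at or above the table's median in either group mean. The list median was 0.08, from pair medians of 0.01 and -0.007 in the riboflavin-deficient rats and 0.06 and 0.22 in the riboflavin-normal rats. Anln, an actin-binding protein of the cleavage furrow, had signals of 5.55, 5.59, 5.76 and 5.48 in neoplasia, against 5.31, 5.42, 5.35 and 5.15 in adjacent normal tissue. The groups did not overlap (mean 0.28, SE 0.10, limma unadjusted p = 0.0288). Bub1, a kinase of the spindle checkpoint, differed by 0.08, 0.28, 0.09 and 0.48, and the kinetochore gene Nuf2 by 0.22, 0.27, 0.00 and 0.27. Aurka, Melk and the replication helicase gene Mcm5 were the other 3, with means of 0.07, 0.06 and 0.13 (SE 0.09 each). Nuf2, Melk and Mcm5 were below the table's median of 4.98 on every array. The loading factor gene Cdc6 was lower at -0.09. Mki67, the usual proliferation marker, split by diet: its pair differences were -0.84 and -0.05 in the riboflavin-deficient rats and 0.77 and 1.06 in the riboflavin-normal rats, a difference of -1.36 (limma unadjusted p = 0.0127, adjusted p = 1.0). Tp63, the master transcription factor of squamous progenitors, differed by -1.04, 0.42, 1.98 and 1.03, and Egfr by -1.02, 0.21, 1.10 and -0.34. DNA repair genes had 2 of 22 members higher and 1 lower in all 4 pairs, beside 4.1% and 3.79% of all genes. Chek2 was higher by 0.22, 0.18, 0.21 and 0.19, and Fancd2 by 0.09, 0.15, 0.09 and 0.09. Brca2 was lower, at -0.07. The neoplasia and adjacent normal arrays of Chek2 overlapped.

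On the lower side, Bex1 had the largest mean difference among the genes named. It encodes a small adaptor protein best known from neurons and from regenerating muscle. Bex1 signals were 10.26, 10.13, 9.24 and 11.91 in neoplasia, against 12.76, 12.58, 12.75 and 12.86 in adjacent normal tissue. The adjacent normal arrays were close together, at 12.58 to 12.86, and all above the neoplasia arrays (mean pair difference -2.35, SE 0.40, limma unadjusted p = 0.00146). A dimmer probe set given the same symbol did not show this, with a mean pair difference of 0.07.

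The microRNA gene Mir1843b had signals of 7.05, 6.47, 7.98 and 7.30 in neoplasia, against 9.26, 8.19, 9.49 and 8.30 in adjacent normal tissue. Every neoplasia array was below every adjacent normal array. The mean pair difference was -1.61 (SE 0.21), and the unadjusted limma p of 0.000347 was the lowest of the genes named. Its hairpin gene lies on GRCr8 at chr13:74085000-74085061, within the span of Cop1, a ubiquitin ligase gene at chr13:73954058-74095283. Cop1 itself differed by -1.11, 0.09, 1.09 and -0.25, with a mean of -0.05 (SE 0.35). Whether the probe set reads the hairpin or longer RNA of that locus cannot be told apart with these values. The mature sequences, from RefSeq on GRCr8, are shown because this was the one microRNA of 372 measured that was at least 0.5 lower in every pair. Over all 22093 genes, 6 (0.0272%) were. Of the 372 microRNAs, 18 (4.84%) were higher and 15 (4.03%) lower in all 4 pairs, beside 4.1% and 3.79% of all genes. The capitals mark the seed, bases 2 to 8.
rno-miR-1843b-5p: aUGGAGGUcucugucugacuuag
rno-miR-1843b-3p: uCUGAUCGuuccccuccauac
The 5p arm, at chr13:74085003-74085025 on the plus strand, had a seed found in 1 of 724 mature rat sequences, its own. The seed of the 3p arm, at chr13:74085040-74085060, was shared with rno-miR-1843a-3p.

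Several genes of striated muscle were lower in every rat as well. Cav3, the muscle caveolin, had signals of 7.67, 7.48, 7.62 and 7.45 in neoplasia, against 8.15, 8.21, 8.57 and 8.49 in adjacent normal tissue. There was no overlap, and both groups were tight (mean pair difference -0.80, SE 0.13, limma unadjusted p = 0.00109). Lmod2, which elongates the thin filament, had signals of 6.99, 6.87, 6.34 and 8.18 in neoplasia and 8.24, 7.26, 8.12 and 9.98 in adjacent normal tissue. The groups overlapped through riboflavin-normal rat 2, whose arrays were the highest of both tissues, and the pair differences were -1.26, -0.39, -1.77 and -1.80. A further Lmod2 probe set was also lower in all 4 pairs (mean -1.10), and the difference between diets was 0.97 (limma unadjusted p = 0.0441, adjusted p = 1.0). Tnni2, the fast-fibre troponin I, had signals of 12.20, 11.16, 12.38 and 12.38 in neoplasia and 13.38, 11.50, 12.83 and 14.56 in adjacent normal tissue, with overlap.

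Of 47 skeletal muscle genes, 8 (17.0%) were lower in all 4 pairs and 0 higher, beside 3.79% and 4.1% of all genes. The others of these 8 were the Z-disc genes Myoz1 (-1.53, SE 0.43), Myoz2 (-0.76, SE 0.20) and Pdlim3 (-1.25, SE 0.29), the sarcomere assembly gene Klhl41 (-1.23, SE 0.34) and the embryonic myosin gene Myh3 (-0.19, SE 0.12). In the mean of the pairs all 47 were lower (49.5% of all genes were), with a median of -0.63. The pair medians were -1.21, 0.19, -0.03 and -1.21, so the list as a whole was lower in 2 rats and near or above 0 in the other 2. The summed signal of the list was 18.72 to 19.51 on the neoplasia arrays and 18.63 to 20.65 on the adjacent normal arrays (log2 of the sum). Muscle genes outside that list stood among those shared by size: the sarcomere protein gene Mypn (-0.80, SE 0.23), the glycogen phosphatase subunit gene Ppp1r3a (-0.62, SE 0.11), the muscle calpain gene Capn3 (-0.59, SE 0.14) and the sarcoglycan gene Sgcd (-0.64, SE 0.15). Of 17 smooth muscle genes, 2 were lower in all 4 pairs and 0 higher, beside 3.79% and 4.1% of all genes. The count of lower genes was 3 with quantile scaling, 4 with cyclic loess and 0 with arrays centred on their medians. Synm, an intermediate filament gene of muscle, was 1 of the 2. Its signals were 6.30, 6.25, 6.44 and 6.32 in neoplasia and 6.45, 6.50, 6.59 and 7.11 in adjacent normal tissue. The other, Lmod1, had a pair at -0.001. How much muscle each isolated area held was not measured apart from these genes, and its part in the differences was not tested.

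The promoters of Cav3 and Lmod2 are shown because both were lower in every rat and both are muscle genes. Each is the 250 bases before the RefSeq start on GRCr8, plus strand, Cav3 at chr4:147137743-147137992 and Lmod2 at chr4:54032724-54032973, with the E-box in capitals.
Cav3: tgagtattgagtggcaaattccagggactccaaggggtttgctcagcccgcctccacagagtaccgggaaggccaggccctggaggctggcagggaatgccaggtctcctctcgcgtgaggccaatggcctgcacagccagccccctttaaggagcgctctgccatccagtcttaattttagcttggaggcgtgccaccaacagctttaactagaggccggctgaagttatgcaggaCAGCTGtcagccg
Lmod2: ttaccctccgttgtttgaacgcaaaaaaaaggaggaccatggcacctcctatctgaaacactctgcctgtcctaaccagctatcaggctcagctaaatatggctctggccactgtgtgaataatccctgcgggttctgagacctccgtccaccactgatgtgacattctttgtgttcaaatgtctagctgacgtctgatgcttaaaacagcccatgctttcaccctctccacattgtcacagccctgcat
The MyoD E-box letters CAGCTG lie at -13 to -8 in Cav3, and none of the 6 motifs was found in the Lmod2 window.

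**Figure D3:**
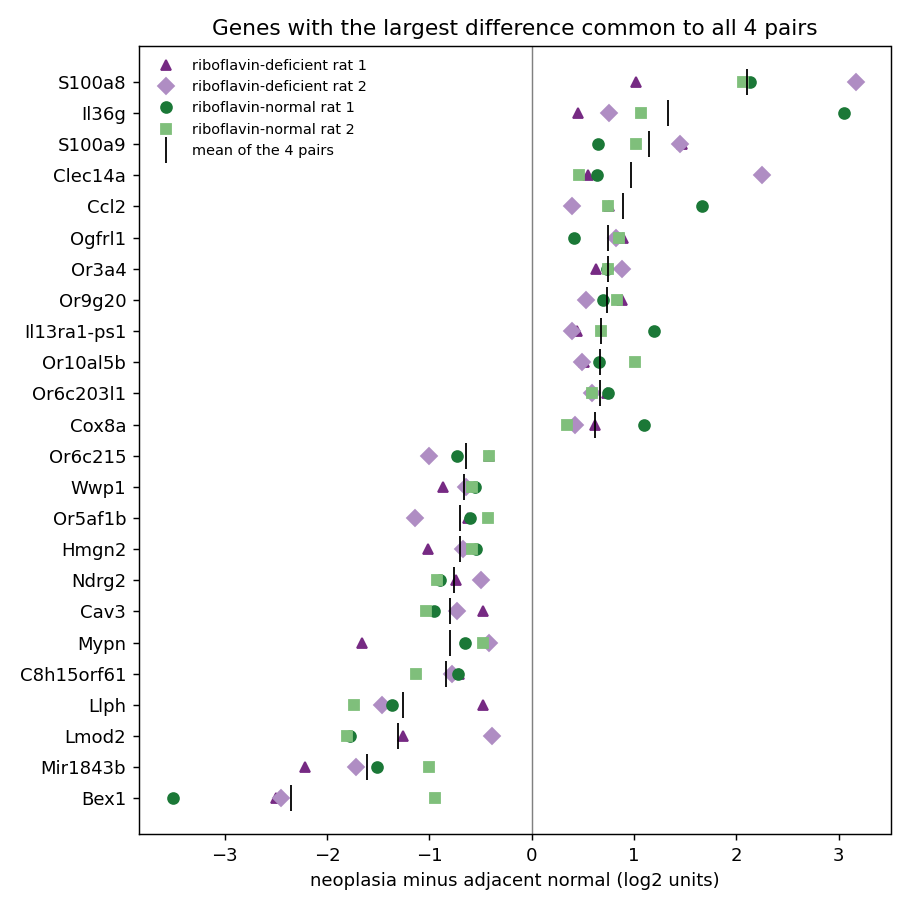
Neoplasia minus adjacent normal difference (log2 units) in each of the 4 rats for the 12 genes per direction with the largest difference common to all pairs, predicted genes such as LOC102552429 left out, with symbols and colours by rat and a vertical bar at the mean. S100a8 ranged from 1.02 to 3.17 and Mir1843b from -2.22 to -1.0, and the muscle gene Lmod2 was nearest 0 in riboflavin-deficient rat 2, at -0.39.

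Several genes with other roles were lower in every pair. Ndrg2, a stress- and differentiation-linked gene described as a tumour suppressor in several epithelia, had signals of 7.46, 7.29, 7.42 and 8.14 in neoplasia, against 8.19, 7.79, 8.32 and 9.06 in adjacent normal tissue. Its pair differences were -0.74, -0.50, -0.90 and -0.92 (mean -0.76, SE 0.11, limma unadjusted p = 0.000764), and the groups overlapped. Wwp1, a HECT-type ubiquitin ligase, differed by -0.87, -0.65, -0.55 and -0.58 (mean -0.66, SE 0.10). Hmgn2, a nucleosome-binding protein, averaged -0.70 (SE 0.12), but its other probe set had mixed signs and a mean of -0.16. Llph, a nucleolar protein gene, averaged -1.26 (SE 0.22), and its other probe set had mixed signs and a mean of -0.47. Nampt, the rate-limiting enzyme of the NAD salvage pathway, averaged -0.48 (SE 0.11). C8h15orf61, an uncharacterised gene, averaged -0.83 (SE 0.12) at low signal, 3.77 to 4.73 on the neoplasia arrays. LOC102552429, a predicted gene that the naming rule skipped and that was added after its values were seen, had signals of 7.31, 6.78, 6.29 and 7.73 in neoplasia and 9.10, 8.08, 9.88 and 9.77 in adjacent normal tissue, with no overlap (mean pair difference -2.18, SE 0.38).

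Other genes were higher in every pair. Ogfrl1, a gene related to the opioid growth factor receptor, differed by 0.89, 0.82, 0.42 and 0.86 (mean 0.75, SE 0.12). Clec14a, a C-type lectin of tumour endothelium, had signals of 6.34, 8.60, 6.42 and 6.32 in neoplasia and 5.80, 6.35, 5.78 and 5.86 in adjacent normal tissue. Its mean of 0.98 (SE 0.33) included 2.25 in riboflavin-deficient rat 2. Of 13 endothelial genes Tie1 alone was higher in all 4 pairs (4.1% of all genes were), by a mean of 0.06. Spcs3, a subunit of the signal peptidase, averaged 0.53 (SE 0.10), and the pseudogene Il13ra1-ps1 averaged 0.68 (SE 0.16) with no overlap.

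Olfactory receptor genes, which encode odorant sensors of the nose, were 3 of the 5 genes at least 0.5 higher in every pair. Or3a4 signals were 5.12, 6.06, 5.68 and 5.05 in neoplasia, against 4.50, 5.18, 4.94 and 4.30 in adjacent normal tissue, with overlap. Its pair differences of 0.62, 0.88, 0.74 and 0.75 (mean 0.75, SE 0.10) gave the lowest unadjusted limma p of the named genes on the higher side, 0.000369. Or6c203l1 and Or9g20 averaged 0.67 and 0.74, and Or10al5b averaged 0.67, while Or5af1b and Or6c215 were lower in every pair, at -0.70 and -0.64. Over all 1052 olfactory receptor genes, 42 (3.99%) were higher in all 4 pairs and 40 (3.8%) lower, beside 4.1% and 3.79% of all genes. At the size of 0.5 in every pair, 3 of the 1052 were higher and 0 lower, beside 5 and 6 of all 22093 genes. The median level of the olfactory receptor genes was 4.72, below the table's median.

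Among metabolic genes, the oxidative phosphorylation list had pair medians of -0.38, -0.03, 0.18 and -0.79, beside -1.21, 0.19, -0.03 and -1.21 for skeletal muscle genes. Of its 38 genes, 4 (10.5%) were lower in all 4 pairs and 1 (2.63%) higher, beside 3.79% and 4.1% of all genes. The count of lower genes was 6 with quantile scaling, 7 with cyclic loess and 2 with arrays centred on their medians. Atp5pf, a subunit of ATP synthase, differed by -0.71, -0.38, -0.23 and -1.18, and Ndufb9, of complex I, by -1.09, -0.16, -0.16 and -0.77. Cox8a, a small subunit of cytochrome c oxidase, stood on the other side, with signals of 6.80, 6.21, 7.12 and 7.09 in neoplasia and 6.18, 5.79, 6.03 and 6.74 in adjacent normal tissue (mean 0.62, SE 0.15). The products of flavin biology genes make or use the cofactors derived from riboflavin. Of 31 such genes, 0 were higher and 4 lower in all 4 pairs, beside 4.1% and 3.79% of all genes. Sdha, the flavoprotein subunit of succinate dehydrogenase, averaged -0.39 (SE 0.20) and the acyl-CoA dehydrogenase gene Acads -0.07. The monooxygenase gene Fmo1 averaged -0.10 and the aldehyde oxidase gene Aox1 -0.15 (SE 0.09). The neoplasia arrays of Sdha, at 6.51, 6.53, 6.45 and 6.57, were all just below the adjacent normal arrays at 6.74, 6.58, 6.63 and 7.65. The count of 4 lower flavin genes was 2 with quantile or cyclic loess scaling and 0 with arrays centred on their medians. Stress genes had 3 of 20 members lower in all 4 pairs and 0 higher, beside 3.79% and 4.1% of all genes. Ddit3, the CHOP factor of the unfolded protein response, averaged -0.35 (SE 0.09). The co-chaperone gene Bag3 averaged -0.52 (SE 0.19) and the small heat shock gene Hspb1 -0.28 (SE 0.13). Of 17 nitrosamine and xenobiotic metabolism genes, 0 had the same direction in all 4 pairs, beside 7.89% of all genes. Cyp2a3, which activates nitrosamines in the rat, averaged -0.05 (SE 0.13).

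**Figure D4:**
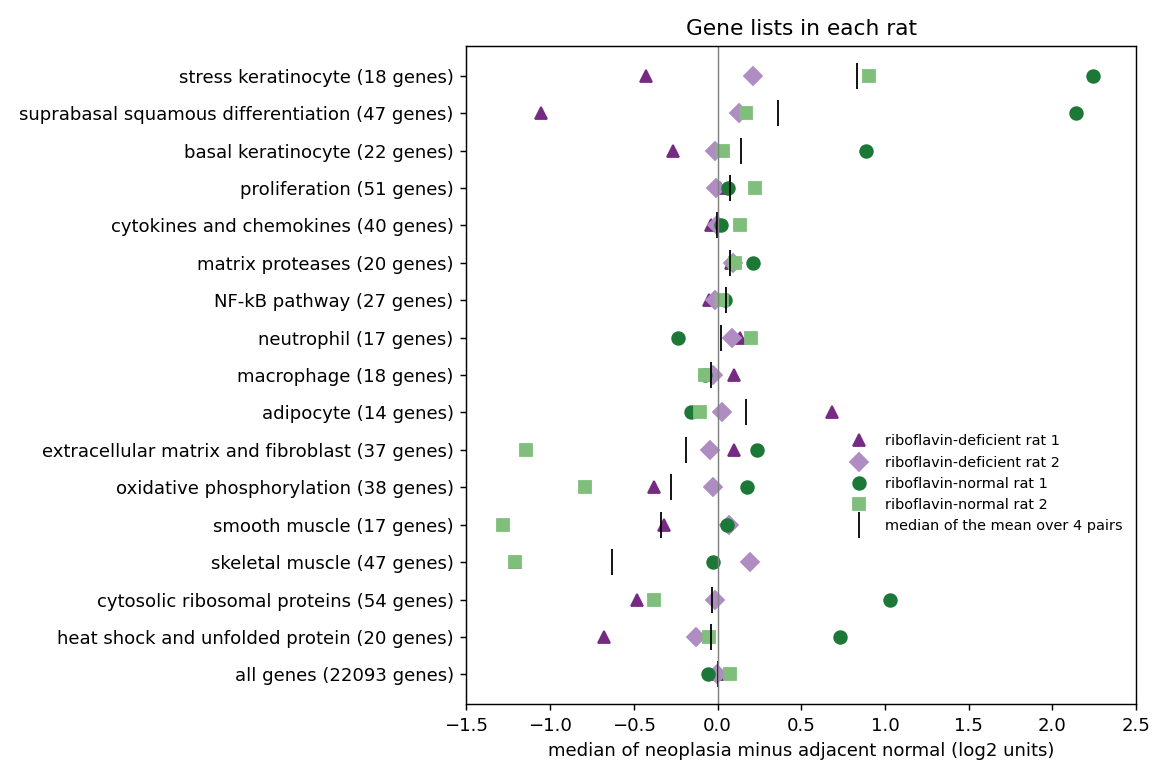
Median neoplasia minus adjacent normal difference (log2 units) of gene lists in each of the 4 rats (symbols) and the median of the mean over the 4 pairs (black bar), with all 22093 genes in the bottom row. Matrix proteases lie above 0 in every rat, at 0.08 to 0.21 (-0.04 at the lowest with arrays centred on their medians), while suprabasal squamous genes span -1.05 to 2.14 and skeletal muscle genes -1.21 to 0.19.

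The difference between diets in the neoplasia effect was tested for every gene, riboflavin-deficient minus riboflavin-normal, and limma passed 0 of 22093 (0.0%), with 760 (3.44%) at an unadjusted p under 0.05. Among the 25 genes named for their shared size or low p, 1, Lmod2, had an unadjusted p under 0.05 for this difference. That choice, by a shared sign with a large smallest difference or a low p, already favours genes whose diets differ little. The count of 1 in 25 therefore does not show how shared genes behave across diets. With 2 rats per diet, the interval of such a difference is wide, and the shared genes are not shown to act alike in both diets.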

How the data were processed

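Expression was measured on 8 Affymetrix arrays of fixed rat oesophagus. The authors deposited 1 table of log2 values for 70580 probe sets, made with Affymetrix Expression Console and RMA (background correction, normalisation between arrays, probe summary), per the submitters' processing notes. Versions and genome build are not given in the sources used here. RMA on fixed, amplified RNA can compress differences at low signal, and values end at a ceiling of 19.93 (16 genes on at least 1 array).

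The platform annotation gave 1 symbol to 23446 probe sets, several to 505 and none to 46629. Those with several or none were not named. Symbols were checked through Entrez IDs (22077 matched, 1 changed), and the probe set with the highest mean was kept for the 1182 genes with more than 1, which left 22093 genes. The number of arrays limits the precision.

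The tissues were compared with limma 3.58.1 (R 4.3.3; lmFit, eBayes) in a model of animal plus neoplasia (3 residual degrees of freedom), and diets with a neoplasia term per diet (2 residual degrees of freedom). Both tissues of a pair came from the same rat, by the animal code. Deviations of both tissues from their group means correlated at 0.16 and 0.19 within the diets. A call needed a Benjamini-Hochberg adjusted p under 0.05. The fit was tested on simulated data with no animal effect and with shifts larger than the mean differences reported here. That test does not show what the fit can call at the sizes seen here. The labels name separate rats within a group.

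Named genes were, per direction, the 12 with the largest smallest pair difference and the 8 of lowest p among genes of shared sign, without predicted genes. To these came up to 3 members per list and a panel of epithelial and inflammation genes. Other list members are named from counts. Genes outside the rule (Cop1, Gpr15lg, Stfa2l3, Stfa3, Ppp1r3a, Capn3, Sgcd, Nampt, LOC102552429) were added after their values were seen. The 32 lists (851 entries, 791 measured) and the members were chosen with earlier results of these data known. Alternatives were other scalings, filters, probe set rules, covariates and leaving out each rat. Sequences are from RefSeq tables (GRCr8). Tables were made with Python 3.11.15, pandas 2.3.3 and scipy 1.17.1.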

Additional observations from a re-analysis of the deposited data

Results flagged for a closer look

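In 125 sets of 4 values, 1 value was tested for standing apart from the other 3, which chance gives in about 1 in 20 sets. Such a pair was seen for Clec14a (2.25, riboflavin-deficient rat 2), Ogfrl1 (0.42, the lowest, riboflavin-normal rat 1), the collagen gene Col1a1 (-1.06, riboflavin-normal rat 2), Msr1 (-0.33, riboflavin-normal rat 2), Fancd2 (0.15, riboflavin-deficient rat 2) and Krt14 (7.70, riboflavin-normal rat 1). The pair median of the nitrosamine and xenobiotic metabolism genes stood apart in riboflavin-normal rat 2 (0.15). Probe sets at the ceiling numbered 1479 on the neoplasia array of riboflavin-normal rat 2, against 1716 to 1723 on the other neoplasia arrays, and 468 on its adjacent normal array, against 1676 to 1748 on the other adjacent normal arrays.

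In 5 lists the pair medians of both riboflavin-deficient rats lay on the opposite side of 0 from those of both riboflavin-normal rats. The difference between the diet means, riboflavin-deficient minus riboflavin-normal, was -0.60 for basal keratinocyte genes, 0.49 for adipocyte genes, -0.10 for cytokines and chemokines, -0.068 for the NF-kB pathway and -0.22 for EGFR, Wnt and Notch genes. These differences were not tested.

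Among 44891 probe sets with no gene name here, 36 (0.0802%) were at least 0.5 higher in neoplasia in all 4 pairs and 28 (0.0624%) at least 0.5 lower, against 1.39% and 1.13% of negative control probe sets.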

How the results depend on the processing

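Under 14 alternatives the count of genes called by limma stayed at 0, including the fit with no replicate block and the fits that keep the replicate block, the pairing by rat, with a neoplasia term per diet or with control separation as a covariate. The count called for the difference between diets was 0 under 11. Among the 22093 genes, 906 were higher and 838 lower in all 4 pairs. Under the 3 scalings 835 to 1005 were higher, of which 398 to 514 were among the 906, and 1025 to 1152 were lower, of which 442 to 554 were among the 838. With the upper 50% of genes by mean kept, 467 were higher and 429 lower in all 4 pairs, and 3 were at least 0.5 higher in every pair, since fewer genes were tested. Cyclic loess gave 11 genes at least 0.5 lower. With 1 rat left out, which asks for 3 pairs only, 1682 to 3542 genes were higher and 1786 to 2441 lower in the remaining pairs, and 16 to 38 were at least 0.5 higher and 16 to 61 at least 0.5 lower. With 1 rat left out, the mean pair difference turned sign for Krt4 (range -0.317 to 0.754), Krt13 (-0.522 to 1.048), Sox2 (-0.415 to 0.025), Ccnd1 (-0.008 to 0.307), Cdkn2a (-0.157 to 0.105) and Cyp2a3 (-0.167 to 0.024), each without riboflavin-normal rat 1, for Mki67 (-0.043 to 0.591) without riboflavin-normal rat 2, and for Egfr (-0.381 to 0.325) and Nos2 (-0.089 to 0.060) without riboflavin-normal rat 2 or riboflavin-deficient rat 1. Median centring turned Nos2 (-0.006), and the mean of all probe sets turned Mgmt (-0.026). The cause was not tested. Over 15 settings S100a8 stayed between 1.74 and 2.46, S100a9 between 1.04 and 1.31, Bex1 between -2.82 and -1.14 and Mir1843b between -1.82 and -1.41. A difference of at least 0.5 in every pair was kept under 1 of 4 rescalings or probe set rules by Hmgn2 and Or6c203l1, under 2 by Wwp1 and under 3 by Bex1, and under all 4 by S100a8, S100a9, Or3a4, Or9g20, Mir1843b, C8h15orf61 and LOC102552429. Array medians of the cytokine genes, 4.79 to 4.87 in neoplasia and 4.71 to 4.98 in adjacent normal tissue, were near or below the table median of 4.98.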

Other observations

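Genes of other families shared a sign across the 4 rats without appearing in the comparisons above. Gap43, a growth-cone protein of nerves, had signals of 6.73, 6.85, 6.52 and 6.75 in neoplasia and 7.06, 7.15, 6.96 and 6.84 in adjacent normal tissue (mean -0.29, SE 0.11), and it was 1 of 13 nerve and Schwann cell genes lower in all 4 pairs (3.79% of all genes were). The adipocyte lipase gene Lipe averaged 0.24 (SE 0.10), and the glucose transporter gene Slc2a1 averaged 0.49 (SE 0.21), with 0.01 and 0.14 in the riboflavin-deficient rats and 1.16 and 0.64 in the riboflavin-normal rats. Txnrd1, the thioredoxin reductase and a flavoprotein, averaged -0.27 (SE 0.12). Tap1, the antigen peptide transporter, averaged 0.14 (SE 0.09) and its groups did not overlap. None passed limma over all genes.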
